A study of Mus musculus with 26 samples.

Results

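Mitochondrial ribosomal protein genes were followed here in 3 states of mouse pluripotent cells. They were taken as every gene of the RNA-seq table whose symbol is Mrpl or Mrps followed by a number, which gave 52 of the 15646 genes with a value. The symbols alone chose them, and no expression or contact value was used. The wild-type (WT) embryonic stem cells (ESCs) were E14Tg2a cells, and the Nanog-/- ESCs were RCNβH-B(t), a line derived from E14Tg2a that lacks the pluripotency factor NANOG and was expanded under hygromycin. Both were grown on gelatin in serum with LIF, whereas the epiblast stem cells (EpiSCs), primed cells from the 129S2 post-implantation epiblast, were grown on fibronectin in N2B27 with Activin A and bFGF. EpiSCs and WT ESCs therefore differed in line, medium and coating as well as in state, and the Nanog-/- cells were a single line. The strain field of the labels names C57BL/6 for all samples, which is not the background the growth protocol gives. RNA-seq came from 3 WT ESC, 4 EpiSC and 3 Nanog-/- ESC libraries, and promoter capture Hi-C (PCHi-C) from 5, 2 and 5 sequencing lanes. The table holds 1 median RPKM per state, a read count normalised for transcript length and library size, and 1 pooled contact list was available per state. No spread between replicates could be computed, so all differences below are descriptions without a test.

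Mitochondria keep their own ribosome, which translates the few messages of mitochondrial DNA into core subunits of the respiratory chain and ATP synthase. Its rRNAs are made inside the organelle, but every one of its proteins is encoded in the nucleus, made in the cytosol and imported. Many of these proteins descend from those of the bacterial ribosome, and the rest are additions particular to mitochondria. In pluripotent cells the demand for it is of interest because naive ESCs are known to use both glycolysis and respiration, while primed EpiSCs are known for a more glycolytic metabolism.

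The 52 genes lay on 16 chromosomes, with 7 on chromosome 11. By protein, 33 belong to the large subunit (Mrps18a and Mrps30 among them, despite their names) and 18 to the small subunit. The remaining one, Mrps36, is now assigned to the oxoglutarate dehydrogenase complex and was kept because its symbol fits. A bacterial counterpart is known for 34 and 18 are specific to mitochondria. Of the 52 starts, 14 (26.9%) lay within 1 kb of the start of a protein-coding gene on the other strand, against 7.37% of the 13641 table genes annotated in GENCODE and 11.9% of those at a mean of 10 RPKM or more. Such pairs include Mrps12 with Sars2, the mitochondrial seryl-tRNA synthetase, Mrps11 with Mrpl46, another mitoribosomal gene, and Mrpl40 with Hira. Exons of 11 members overlapped exons of another protein-coding gene. The library kit named in the labels does not mark the strand, so reads from such overlaps cannot be told apart.

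The promoters of 6 members that the levels below turn on are shown from 250 bases before to 50 bases after the start, as RefSeq gives them on GRCm38.p6. Capitals mark exact matches on either strand to CCGGAAG, the core of ETS factor sites such as those of GABPA, to AAGATGGC, the core of YY1 sites, or to GCGCATGC, the core of sites of NRF1, a classical regulator of nuclear genes for mitochondria. The first 3 are the members with the lowest EpiSC to WT ESC ratios, and the next is the one with the highest.
Mrpl23 (chr7:142532782-142533081, + strand): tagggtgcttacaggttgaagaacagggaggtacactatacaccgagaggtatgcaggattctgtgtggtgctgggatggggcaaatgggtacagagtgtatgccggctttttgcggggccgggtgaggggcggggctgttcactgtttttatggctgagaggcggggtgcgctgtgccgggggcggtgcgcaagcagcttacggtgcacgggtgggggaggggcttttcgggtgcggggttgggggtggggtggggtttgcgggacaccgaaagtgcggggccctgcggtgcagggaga
Mrps33 (chr6:39810887-39811186, - strand): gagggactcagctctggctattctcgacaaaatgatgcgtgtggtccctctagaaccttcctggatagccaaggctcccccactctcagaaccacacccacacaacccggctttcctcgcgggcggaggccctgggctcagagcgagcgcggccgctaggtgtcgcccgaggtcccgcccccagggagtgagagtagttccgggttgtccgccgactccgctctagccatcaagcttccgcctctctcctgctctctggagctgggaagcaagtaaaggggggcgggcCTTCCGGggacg
Mrps24 (chr11:5707652-5707951, - strand): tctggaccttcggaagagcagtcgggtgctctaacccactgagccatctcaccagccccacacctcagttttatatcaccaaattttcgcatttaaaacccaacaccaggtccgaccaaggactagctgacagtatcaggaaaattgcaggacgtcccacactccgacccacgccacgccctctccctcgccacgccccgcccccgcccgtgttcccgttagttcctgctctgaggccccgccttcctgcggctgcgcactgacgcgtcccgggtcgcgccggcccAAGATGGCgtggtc
Mrpl3 (chr9:105053018-105053317, + strand): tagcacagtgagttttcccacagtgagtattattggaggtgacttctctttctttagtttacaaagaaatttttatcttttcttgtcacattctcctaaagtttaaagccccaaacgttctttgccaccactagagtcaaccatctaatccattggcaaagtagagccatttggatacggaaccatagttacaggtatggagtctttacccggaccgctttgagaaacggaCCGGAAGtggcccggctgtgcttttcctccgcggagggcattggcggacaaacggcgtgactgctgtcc
The last pair have the highest and the lowest Nanog-/- to WT ESC ratio.
Mrpl27 (chr11:94653541-94653840, + strand): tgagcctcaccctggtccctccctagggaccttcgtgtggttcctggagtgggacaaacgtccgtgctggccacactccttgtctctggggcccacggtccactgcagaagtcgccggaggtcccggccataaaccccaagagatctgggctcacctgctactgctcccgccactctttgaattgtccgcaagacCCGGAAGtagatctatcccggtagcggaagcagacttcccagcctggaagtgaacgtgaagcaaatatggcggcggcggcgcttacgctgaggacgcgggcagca
Mrpl24 (chr3:87919294-87919593, + strand): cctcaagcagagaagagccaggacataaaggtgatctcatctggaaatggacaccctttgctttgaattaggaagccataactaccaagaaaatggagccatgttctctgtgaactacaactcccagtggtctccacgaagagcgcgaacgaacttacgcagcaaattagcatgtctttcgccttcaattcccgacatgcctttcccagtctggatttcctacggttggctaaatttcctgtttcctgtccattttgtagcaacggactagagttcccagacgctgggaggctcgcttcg

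RefSeq promoters were found for 45 of the 52 members. The ETS core occurred in 14 of the 45 (31.1%), against 22.2% of 4445 genes at a mean of 10 RPKM or more and 9.93% of 27025 genes in all. In the 250 bases before the start alone it occurred in 17.8% of members and 17.2% of genes at 10 RPKM or more, which is nearly equal. The YY1 core occurred in 8 (17.8%), against 5.89% and 3.19%, and the NRF1 core in 6 (13.3%), against 7.27% and 3.05%. The SP core GGGCGG went the other way, with 20 members (44.4%) against 74.1% of the genes at 10 RPKM or more and 38.2% of all. CCAAT was found in 46.7% of member promoters, 43.1% of the genes at 10 RPKM or more and 41.1% of all, and the E-box CACGTG in 4.44%, 12.8% and 8.09%. CTACAATTC, part of the ZNF143 site, was in no member promoter, against 0.877% of the genes at 10 RPKM or more and 0.403% of all. A word this rare says little when absent from 45 promoters, and other forms of the site were not searched. The median GC content was 58.0% in members, 61.7% in genes at 10 RPKM or more and 52.8% in all, so short GC-rich words are not equally likely in the 3 sets. The Mrpl23 and Mrpl24 windows printed above hold none of the 3 capitalised words. A match is a run of letters and not a shown binding site.

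Before levels were compared, EpiSC RPKM values were divided by 1.89, the median EpiSC to WT ESC ratio of 9077 genes at 1 RPKM or more in both states. EpiSC levels below are on this scale unless given as deposited. Nanog-/- values were left unscaled, where the same ratio was 1.05. The labels were checked on marker genes. Nanog itself stood at 418 RPKM in WT ESCs, with 191 in EpiSCs and 22.3 in Nanog-/- ESCs. The 6 measured naive markers summed to 820, 9.43 and 592 RPKM in that order, and 6 primed markers to 282, 628 and 256. Single markers did not all follow the sums. Among primed markers, Dnmt3b was lower in EpiSCs (210 RPKM in WT ESCs, 144 in EpiSCs) and Otx2 hardly differed (39.5 and 41.4). Among naive markers, Tbx3 (14.9 and 24.1 RPKM) and Nr0b1 (126 and 131) were not lower in Nanog-/- than in WT ESCs. Markers of other cells moved too. All 5 fibroblast markers were above 1 RPKM in every state and summed to 45.5 RPKM in WT ESCs, with 213 in EpiSCs and 56.6 in Nanog-/- ESCs. The 4 primitive endoderm markers summed to 2.19, 11.7 and 50.0 RPKM, with Sox7 at 0.127 RPKM in WT ESCs and 9.18 in Nanog-/- ESCs. The part of such cells in the differences below was not tested, and in bulk RNA fewer cells of a type cannot be told apart from less RNA per cell.

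All 52 members passed the filter of a mean of 1 RPKM over the 3 states, and none was below 1 RPKM in any state. Their median level was 53.2 RPKM in WT ESCs, with 38.7 in EpiSCs and 63.4 in Nanog-/- ESCs, compared with 14.4 RPKM in WT ESCs for the 10124 genes that passed the filter. RPKM is per length, so levels may be ordered between genes. Mrpl42, a mitochondria-specific protein of the large subunit, was highest, at 334 RPKM in WT ESCs, with 140 in EpiSCs and 315 in Nanog-/- ESCs. Mrpl52, also specific to mitochondria, followed at 207, 157 and 202 RPKM and was the highest member in EpiSCs. Mrps16, a small-subunit protein with a bacterial counterpart, stood at 190, 120 and 210 RPKM. These are the only members above 100 RPKM in every state together with Mrpl11 (179, 134 and 195 RPKM) and Mrpl12 (150, 118 and 184 RPKM), which correspond to the bacterial proteins at the factor-binding stalk. Mrpl40 came next by mean level, at 111, 67.4 and 130 RPKM.

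The lower end of the range was held by Mrpl33 at 11.4, 10.2 and 8.94 RPKM, Mrps10 at 16.9, 11.9 and 16.1, Mrps35 at 16.2, 13.8 and 15.7, and Mrps18a at 19.1, 13.4 and 21.98 RPKM in WT ESCs, EpiSCs and Nanog-/- ESCs. Message levels of proteins of the same ribosome thus spanned a wide range in every state. The order of members was similar between states, with a Spearman rho over the 52 genes of 0.86 between WT ESCs and EpiSCs and 0.95 between WT and Nanog-/- ESCs. Gene length and the counting method are shared by all points of these correlations. Without a spread between libraries, it cannot be said which neighbours in the order differ.

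**Figure D1:**
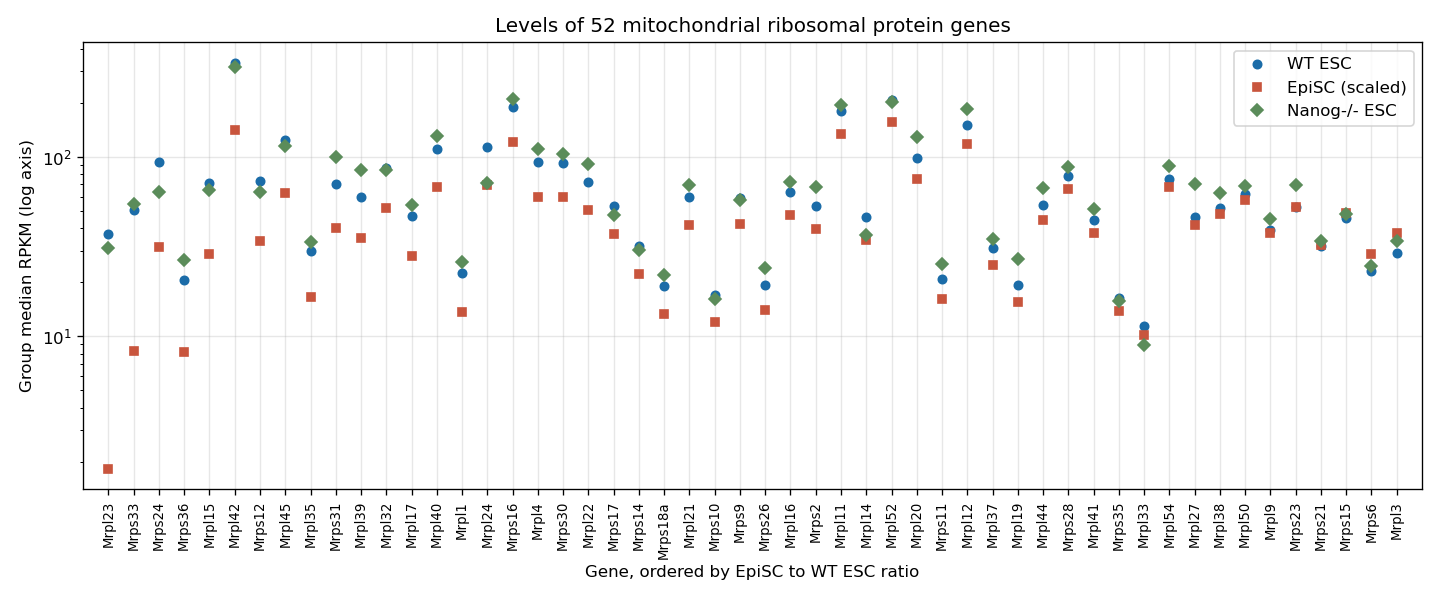
Group median RPKM of the 52 genes (log axis) in WT ESCs, EpiSCs (scaled) and Nanog-/- ESCs, with genes ordered from the lowest to the highest EpiSC to WT ESC ratio. Each point is 1 pooled value without an error bar; Mrpl23 and Mrps33, at the left, lie at 1.82 and 8.22 RPKM in EpiSCs, and Mrps6 and Mrpl3, at the right, lie above WT ESCs.

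The first comparison asks how the members' levels differ between primed EpiSCs and naive WT ESCs. Members were mostly lower in EpiSCs relative to the typical gene. The log2 ratio of EpiSC to WT ESC levels, taken after adding 0.1 RPKM, had a median of -0.47 over the 52 members, and 48 of them lay below 0. Over all 10124 genes the median was -0.00, and over the 6229 genes at a mean of 10 RPKM or more it was -0.11. With a change of 1.5-fold as the limit, 19 members were lower and 0 were higher. Of all genes, 25.6% were lower and 27% were higher by that limit. Of the 6229 genes at 10 RPKM or more, 25.7% were lower and 17.7% higher. The share of members lower (36.5%) was thus above both backgrounds and the share higher was below them. At a fold of 2 the order of the shares lower reversed, with 7 of the 52 members lower against 16.1% of all genes. The sign of the members' median depends on the scale. On the deposited RPKM it was 0.44, because the whole table was shifted by 0.92. Its distance from the median of all genes, then -0.48, could hardly change, because a scale moves all genes alike.

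Mrpl23, whose bacterial counterpart lies at the exit of the peptide tunnel, had the lowest ratio. It stood at 37.0 RPKM in WT ESCs, 31.1 in Nanog-/- ESCs and 1.82 in EpiSCs (3.43 as deposited), a log2 ratio of -4.27 for EpiSCs. It ranked 37th of 52 in WT ESCs and last in EpiSCs. Mrps33, a small-subunit protein specific to mitochondria, went from 50.2 RPKM in WT ESCs to 8.22 in EpiSCs, with 54.5 in Nanog-/- ESCs (log2 ratio -2.60 for EpiSCs). Mrps24, the counterpart of bacterial S3 where the message enters the small subunit, was at 93.4 RPKM in WT ESCs, with 31.5 in EpiSCs and 63.4 in Nanog-/- ESCs (log2 ratio -1.57 for EpiSCs), and it shares exon sequence with Urgcp. Next came Mrps36 (20.4, 8.15 and 26.6 RPKM, -1.32), Mrpl15 of the large subunit (71.3, 28.8 and 65.2 RPKM, -1.31) and Mrpl42 (-1.25). The step after the first few was large: 50 of the 52 ratios lay above -1.57 or at it, and without Mrpl23 and Mrps33 the median was -0.44.

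At the other end, 4 members lay above 0 and none passed 1.5-fold. Mrpl3, whose counterpart reaches towards the peptidyl transferase centre, was at 29.2 RPKM in WT ESCs and 37.7 in EpiSCs (log2 ratio 0.37). Mrps6, of the small subunit, was at 23.1 and 28.6 RPKM (0.31). It shares exon sequence with Slc5a3, an inositol transporter gene, whose reads could enter its count. Mrps15 (45.7 and 48.5 RPKM, 0.08) and Mrps21 (31.8 and 32.4 RPKM, 0.02) lay next to 0, as did Mrps23 (-0.00) and Mrpl9 (-0.06). Both subunits were shifted alike, with medians of -0.43 for the 33 large-subunit genes (13 lower by 1.5-fold) and -0.47 for the 18 small-subunit genes (5 lower). Members with a bacterial counterpart had a median of -0.49 (11 of 34 lower) and those specific to mitochondria -0.43 (8 of 18 lower).

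**Figure D2:**
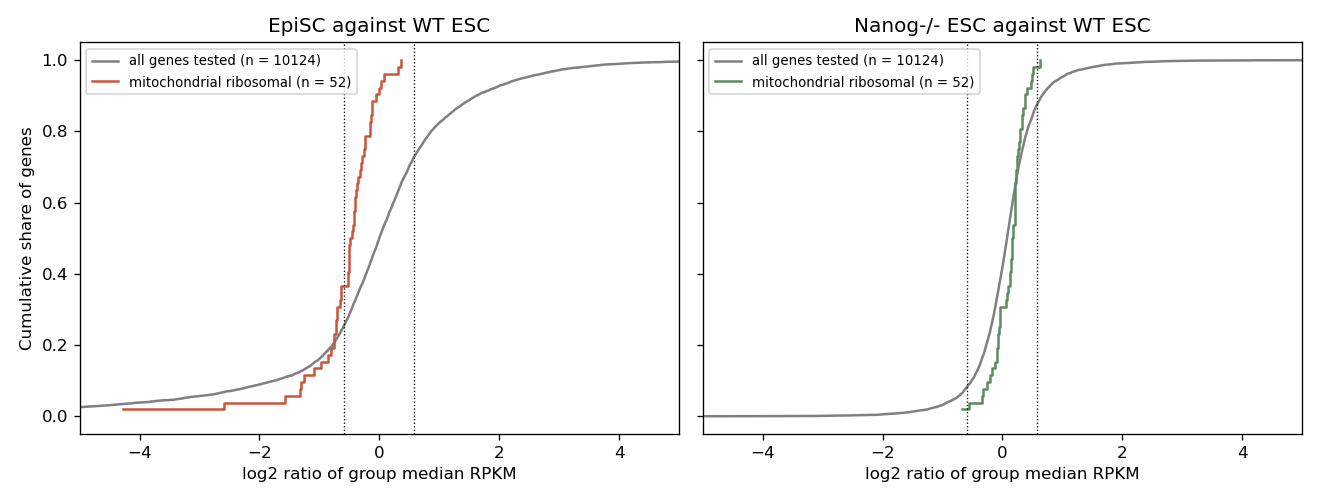
Cumulative share of genes by log2 ratio to WT ESCs for EpiSCs (left) and Nanog-/- ESCs (right), with the 52 members as a coloured step line, all 10124 tested genes in grey and dotted lines at 1.5-fold. Members are shifted to the left in EpiSCs, with 48 below 0, and span a narrow range in Nanog-/- ESCs; the horizontal axis stops at 5 in both directions, beyond which no member lies.

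Several of the lowest members have near-identical copies elsewhere in the genome. This property was measured because a read from such a gene can match more than 1 place, and the labels give single-end reads of 50 or 100 bases without saying which library had which. Windows of 50 bases were taken every 10 bases along each gene's longest protein-coding transcript and looked up in GRCm38. Of the Mrpl23 windows, 66.7% occurred exactly at chr2:74591373-74591872, annotated as the processed pseudogene Mrpl23-ps1. For Mrps33 the share was 49.1%, with the copy at chr7:54411910-54412519 in the processed pseudogene Gm5776. For Mrps36 it was 83.3% over 7 places, the main one being Mrps36-ps1 at chr17:53866422-53867031, and for Mrpl42 it was 21%. With windows of 100 bases the shares were 64.1% for Mrpl23, 41.6% for Mrps33, 68.9% for Mrps36 and 8.77% for Mrpl42. In contrast, Mrps24 had no copied window and Mrpl15 had 0.481%. Copies did not go with a low ratio in every member: Mrpl27 (53.5% of windows copied) had an EpiSC log2 ratio of -0.14 and Mrps21 (38.6%) one of 0.02.

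Over all tested genes with a transcript (9015 of 10124), the 225 with 50% or more of their windows copied had a median EpiSC log2 ratio of -1.53, the 587 with 10% to under 50% one of -0.43, and the 8203 with under 10% one of 0.07. The same 3 groups had medians of 0.00, 0.08 and 0.08 in Nanog-/- ESCs. The levels of the 10 members with 10% or more of their windows copied, which are Mrps36, Mrpl23, Mrpl27, Mrps33, Mrpl22, Mrps21, Mrps10, Mrpl42, Mrpl41 and Mrpl4, are therefore uncertain, and the part of copied sequence in the EpiSC ratios was not tested. Among the 42 members with under 10% of windows copied, the median EpiSC log2 ratio was -0.43 and 14 (33.3%) were lower by 1.5-fold, where 22.1% of all genes with under 10% copied were lower. Among the 27 with no copied window it was -0.41, with 8 (29.6%) lower, where the 6038 genes without a copied window had a median of 0.10 and 21.9% were lower.

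**Figure D3:**
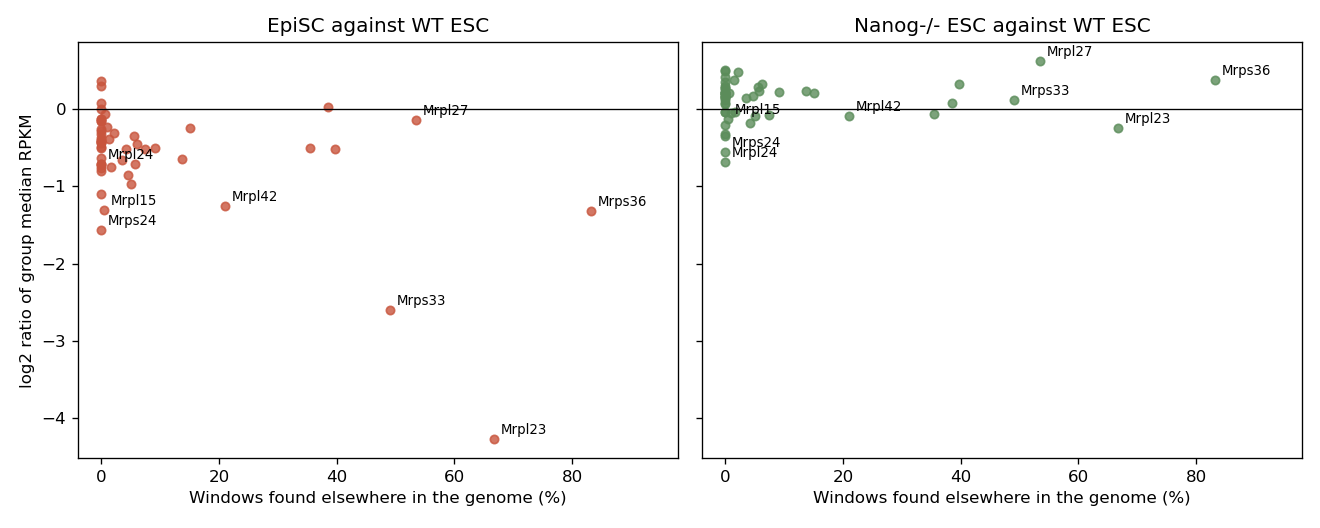
log2 ratio to WT ESCs of each of the 52 members for EpiSCs (left) and Nanog-/- ESCs (right) against the percentage of its 50-base windows found elsewhere in GRCm38. Mrpl23, Mrps33 and Mrps36 combine a low EpiSC ratio with 49.1% to 83.3% of windows copied, Mrps24 and Mrpl15 are low with almost none, and no such spread is seen in Nanog-/- ESCs.

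The other genes of the pathway were read from lists chosen by function, and their counts stand against the same 25.6% lower and 27% higher of all genes. Of 6 mitoribosomal proteins with other symbols, 2 were lower in EpiSCs by 1.5-fold and 0 higher, with a median log2 ratio of -0.40. Ptcd3, a small-subunit protein, had -0.90 (145 RPKM in WT ESCs, 77.3 in EpiSCs), and Chchd1 had 0.01. Of 8 mitochondrial translation factors 1 was lower. This was Tufm, the elongation factor that delivers aminoacyl-tRNA, at 94.5 RPKM in WT ESCs and 20.4 in EpiSCs (-2.21), whereas Taco1, a translational activator of Cox1, had the highest ratio, 0.44. Among 17 genes for charging mitochondrial tRNAs 4 were lower and 1 higher, from Lars2 (-1.35) to Gatc (0.84), so that the share lower (23.5%) was near the background. Lars2 stood far above its list, at 2397 RPKM in WT ESCs where the list's median was 20.9, and the reason was not tested. Among 12 genes for ribosome assembly and rRNA modification 3 were lower and 2 higher, from Rbfa (-1.20), a small-subunit assembly factor, to Mterfd2 (0.67), and the share lower (25.0%) was again near the background.

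The list for transcription of mitochondrial DNA and handling of its messages had a lower median than the ribosomal proteins. It was -0.69 over 13 genes, of which 8 were lower and 0 higher. Tfb2m, a transcription initiation factor of the organelle, was at 13.2 RPKM in WT ESCs and 1.98 in EpiSCs (-2.68). Gabpa, an ETS factor, was at 65.4 and 37.7 RPKM (-0.79) and Nrf1 at 15.8 and 11.9 RPKM (-0.40). A link between these factors and the members' levels was not tested. Mtpap, the mitochondrial poly(A) polymerase, was highest in the list at 0.21. For the products of the pathway's work, 56 nuclear genes for the respiratory chain and ATP synthase had a median of -0.34 with 19 lower and 1 higher, from Ndufb4 (-3.41) to Cox6b2 (1.15). The 58 cytosolic ribosomal protein genes had a median of -2.59, and 57 of them were lower. In 56 of these with a transcript the median share of copied windows was 48.4%, against 0% in members, the 5 with under 10% copied had a median of -1.30, and the 2 among them with no copied window had one of -3.86.

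The second comparison asks how levels of the same genes differ between the single Nanog-/- line and WT ESCs. Members were slightly higher in Nanog-/- ESCs, by a log2 median of 0.17, with 36 above 0 and 16 below. The median of all 10124 genes was 0.08, and 41.7% of them lay below 0, against 30.8% of members. These values are unscaled, and the scale left out amounts to 0.069 in log2. Only 1 member was higher by more than 1.5-fold and 1 lower, against 12.3% and 8.35% of all genes. Every member had a mean of 10 RPKM or more, and of the 6229 genes at that level 6.68% were higher and 5.17% lower. The SD of the log2 ratio over genes was 0.259 in members, 0.436 in the genes at 10 RPKM or more and 0.598 in all. Mrpl27, whose bacterial counterpart reaches the peptidyl transferase centre, was at 45.9 RPKM in WT ESCs and 70.5 in Nanog-/- ESCs (log2 ratio 0.62). It shares exon sequence with Eme1 and has copied windows, as above. Mrpl24, which like Mrpl23 corresponds to a bacterial protein at the tunnel exit, was at 114 and 71.0 RPKM (-0.68) and shares exon sequence with Rrnad1.

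Behind Mrpl27 came Mrps31 (70.1 RPKM in WT ESCs, 99.7 in Nanog-/- ESCs, log2 ratio 0.51), Mrpl39 (59.8 and 84.2 RPKM, 0.49), Mrpl19 (19.4 and 27.1, 0.48), Mrps23 (52.4 and 69.7, 0.41) and Mrpl20 (98.8 and 129, 0.38). The low end after Mrpl24 held Mrps24 (-0.56), Mrpl33 (-0.34), Mrpl14 (-0.33), Mrpl23 (-0.25) and Mrps12 (-0.20), the counterpart of the bacterial decoding-centre protein S12. Mrps24 shares exon sequence with Urgcp, Mrpl14 with Tmem63b and Mrpl19 with Gcfc2. Among the 41 members that share no exon with another protein-coding gene, none passed 1.5-fold in either direction. The pathway lists had medians from -0.17 for cytosolic ribosomal proteins to 0.15 for translation factors. The shift of the cytosolic ribosomal proteins was small but uniform, with 57 of 58 below 0 and an SD over genes of 0.100. By 1.5-fold, Cox6b2 (-1.53) and Lars2 (-0.59) were lower and 3 genes of ribosome assembly were higher, led by Rnmtl1, an rRNA methyltransferase gene (6.81 RPKM in WT ESCs, 15.3 in Nanog-/- ESCs, 1.16).

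Promoter contacts were examined next. In PCHi-C a HindIII fragment that carries a promoter, the bait, is captured together with the fragments ligated to it, and the lists hold pairs with a CHiCAGO score, a measure of contact above the distance-dependent background, of at least 5. Each list pools the replicates of a state and holds 100492 different pairs in WT ESCs, with 87369 in EpiSCs and 74931 in Nanog-/- ESCs, with 2177284, 1651286 and 1438555 reads. Fewer pairs in a list cannot be told apart from fewer reads. The members' baits took part in 314 WT ESC pairs, 325 EpiSC pairs and 250 Nanog-/- pairs. At least 1 contact was listed for 45, 44 and 41 of the 52 baits, where 86.8%, 82.2% and 73.7% of the 15699 baits in the RNA table had one. The members' shares of 86.5%, 84.6% and 78.8% were close to these. The median number per bait was 3, 4 and 2 in members and 3, 3 and 2 in all baits. Mrpl44 and Mrpl19 had no contact in any list, and 35 members had one in every list.

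A few baits held much of the total. Mrpl37, Mrpl33, Mrpl41, Mrpl16, Mrps18a and Mrpl17 together had 140 contacts in WT ESCs, with 147 in EpiSCs and 114 in Nanog-/- ESCs, which is 44.6%, 45.2% and 45.6% of the members' contacts. The Mrpl37 bait also holds the start of Cyb5rl and the Mrpl41 bait that of Pnpla7. Another protein-coding start lies in the bait of 16 of the 52 members, and contacts of such a bait cannot be assigned to 1 gene. Mrpl37, a mitochondria-specific protein of the large subunit, had most, with 33, 41 and 38 contacts, of which 18 were in all 3 lists. Its baited partners in all 3 were Ttc4, Ssbp3, Gm12786, Cdcp2 and Tmem59. Mrpl41 had 22, 20 and 24 contacts, 11 of them in all lists and many to other promoters of its gene-rich neighbourhood, such as Arrdc1, Zmynd19 and Nrarp. These baits are not those of highly expressed members. Mrpl33 had the lowest mean level of all 52, and Mrpl42, the highest, had 0 contacts in WT ESCs, with 2 in EpiSCs and 1 in Nanog-/- ESCs. Spearman's rho between level and contact number over the 52 members was -0.02, -0.06 and 0.00 in WT ESCs, EpiSCs and Nanog-/- ESCs.

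Mrpl33 looked in 1 direction only. All of its 24, 28 and 16 contacts lay on the higher-coordinate side, at a median distance of 560, 559 and 548 kb. The strongest in WT ESCs joined it to Gm10463 at 532 kb with 33 reads and a score of 34.9, and the promoter of Fosl2, a gene of the AP-1 family, was a partner in all 3 lists. The bait at chr5:31596206-31597039 lies over the start that GENCODE annotates, while the RefSeq promoter lies at chr5:31613701-31614000. Mrps11, on a bait that also holds the start of Mrpl46, contacted the fragment of the microRNA gene Mir7-2 at 105 kb with 63 reads and a score of 31.4 in WT ESCs and with 52 reads and a score of 35.7 in EpiSCs.

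**Figure D4:**
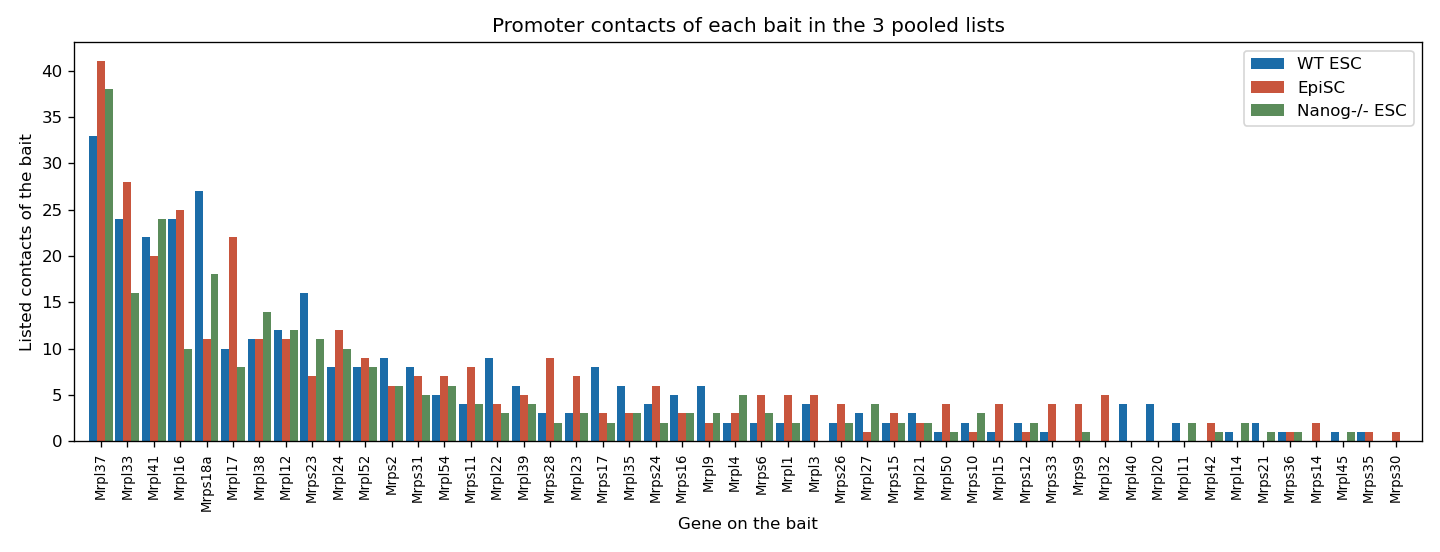
Listed contacts of each of the 50 member baits with at least 1, in WT ESCs, EpiSCs and Nanog-/- ESCs, ordered by their sum. Bars are counts in 1 pooled list each, without an error; Mrpl37 leads with 33, 41 and 38, and most baits have fewer than 10.

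Members' contacts reached a little further than those of all baits and ended more often on another bait. Their median distance was 166 kb in WT ESCs, with 158 kb in EpiSCs and 110 kb in Nanog-/- ESCs, against 137, 138 and 74.4 kb over all baits. Both ends were baited in 45.5% of members' contacts in WT ESCs (Wilson 95% interval 40.1% to 51.1%), 38.5% in EpiSCs (33.3% to 43.9%) and 44.4% in Nanog-/- ESCs (38.4% to 50.6%). Over all baits the shares were 26.4%, 20.98% and 25.0%, and over baits of genes at a mean of 10 RPKM or more 34.1%, 27.4% and 33.1%. Contacts of 1 bait are not independent, and the intervals cover counting error only. No pair joined 2 members.

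Contacts over 800 kb numbered 3 of 314 in WT ESCs (0.955%, 0.325% to 2.77%), 7 of 325 in EpiSCs (2.15%, 1.05% to 4.38%) and 1 of 249 within a chromosome in Nanog-/- ESCs (0.402%, 0.0709% to 2.24%). The intervals overlap, and over all baits the shares were 1.35%, 1.74% and 0.385%, each inside the members' interval. The members' long contacts came from 3, 5 and 1 members, where 4.53%, 4.33% and 1.32% of all baits had such a contact. In WT ESCs Mrps2 met Wdr5, a subunit of histone methyltransferase complexes, at 954 kb (5 reads), Mrps15 met Zc3h12a at 917 kb (6 reads) and Mrpl17 met Olfr711, an olfactory receptor gene, at 1162 kb (5 reads). Only the Mrps15 pair recurred, in Nanog-/- ESCs with 6 reads. In EpiSCs Mrps15 had 2 others, at 961 and 1107 kb on fragments with exons of Meaf6 and Cdca8. Mrpl17 had another pair there, at 1001 kb on Olfr701 and at 1233 kb between genes. Mrps14 met Rfwd2 at 967 kb, Mrpl32 a fragment between genes at 1153 kb and Mrps28 one with an exon of Zc2hc1a at 1422 kb, each listed in EpiSCs alone and with 4 to 6 reads.

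Of the 314 contacts in WT ESCs, 146 (46.5%, 41.1% to 52.0%) were also listed in EpiSCs and 134 (42.7%, 37.3% to 48.2%) in Nanog-/- ESCs. These are 44.9% of the EpiSC and 53.6% of the Nanog-/- contacts of members. For all pairs the shares of WT ESC pairs were 39.6% and 41.8%. In all 3 lists 94 pairs were found, which is 29.9% of the members' WT ESC contacts (25.1% to 35.2%). The share was 24.9% for all WT ESC pairs and 25.3% over all baits. The 94 pairs came from 25 members, with 18 at Mrpl37 alone, and 48 of them joined 2 baits. Contact numbers were higher in EpiSCs than in WT ESCs for 25 members, lower for 22 and equal for 5. In Nanog-/- ESCs they were higher for 12, lower for 23 and equal for 17. Such counts were not made over all baits. The mean number of contacts per member bait was 6.04 (WT ESC), 6.25 (EpiSC) and 4.81 (Nanog-/- ESC). Over all baits it was 6.45, 5.36 and 4.81 in that order. Fewer contacts of members in Nanog-/- ESCs therefore cannot be told apart from the smaller list.

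The largest gain in EpiSCs was at Mrpl17, from 10 to 22 contacts (8 in Nanog-/- ESCs), followed by Mrpl37 and by Mrps28, from 3 to 9. At Mrpl17 the added contacts covered Dnhd1 and reached Smpd1, Apbb1, Trim3 and Dchs1, while contacts to Ilk, Taf10 and Tpp1 were in every list. The largest loss was at Mrps18a, from 27 in WT ESCs to 11 in EpiSCs and 18 in Nanog-/- ESCs. All 27 lay on 1 side, most of them in a region without protein-coding genes beyond Vegfa, the gene of a vascular growth factor. Mrps23 went from 16 to 7 in EpiSCs and 11 in Nanog-/- ESCs, and Mrpl16 from 24 in WT ESCs to 10 in Nanog-/- ESCs with 25 in EpiSCs. Over the 52 members, Spearman's rho between the difference in contacts and the log2 ratio was -0.10 for EpiSCs and -0.15 for Nanog-/- ESCs. Mrpl17 had a log2 ratio of -0.73 in EpiSCs and Mrps18a one of -0.51.

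The bait of Mrpl23 (chr7:142524227-142535359) is an example of contacts that stayed while the measured level differed. That level is uncertain, because 66.7% of the Mrpl23 windows are copied elsewhere, as above. The part of copied sequence in the low EpiSC value was not tested. The bait lies beside the imprinted Igf2 cluster. Its contact with the Igf2 promoter fragment (chr7:142665163-142668849, 137 kb away) was listed with 25 reads and a score of 17.5 in WT ESCs, 17 reads and 16.8 in EpiSCs, and 10 reads and 8.88 in Nanog-/- ESCs. A second one, with the fragment of the microRNA gene Mir483 inside the cluster (126 kb), had 18, 16 and 11 reads. Igf2, which encodes a fetal growth factor, was at 9.74 RPKM in WT ESCs, with 121 in EpiSCs and 22.8 in Nanog-/- ESCs. Its direction in EpiSCs was opposite to that of the measured Mrpl23 level. The Mrpl23 bait is meant below. In EpiSCs the bait had 7 contacts in place of 3, among them 3 on the Tnnt3 side within 30.0 kb and 1 in an intron of Ins2. In Nanog-/- ESCs it held the only contact between chromosomes in the members' lists, to chr13:51371816-51378080 between protein-coding genes, with 10 reads, a score of 75.4 and no counterpart in the other lists.

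**Figure D5:**
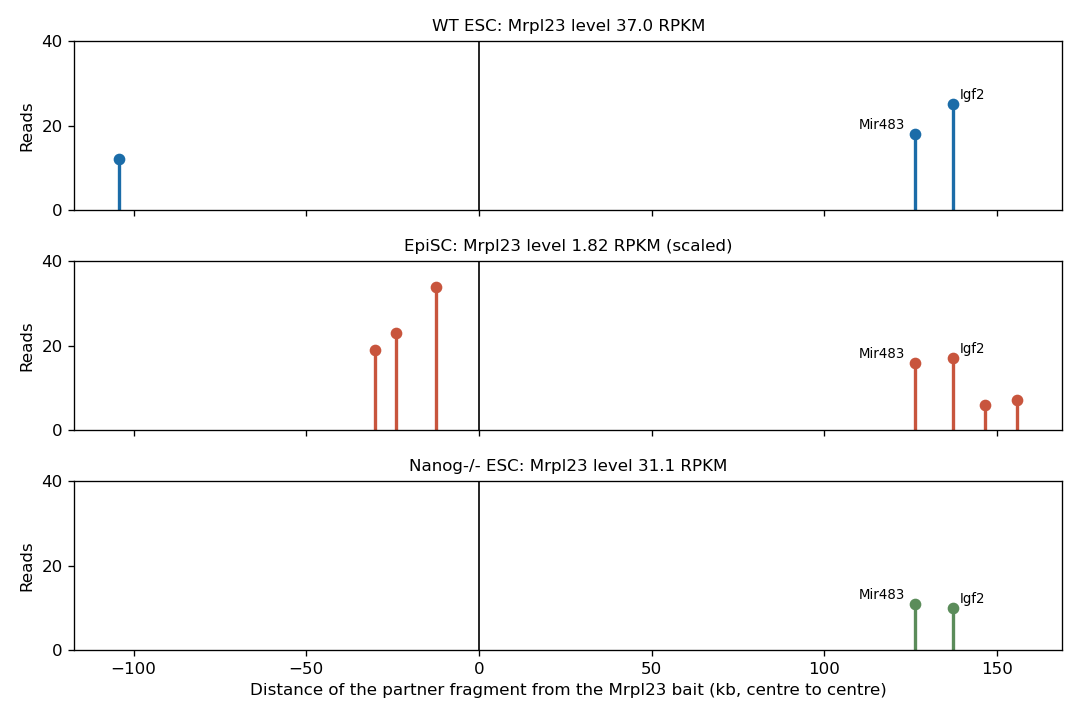
Reads of each listed contact of the Mrpl23 bait within chromosome 7 against the distance of the partner fragment, in WT ESCs (top), EpiSCs (middle) and Nanog-/- ESCs (bottom), with the Mrpl23 level above each panel. The Igf2 and Mir483 fragments at 137 and 126 kb appear in all 3 panels, where the level reads 37.0, 1.82 and 31.1 RPKM. The level is uncertain because 66.7% of the Mrpl23 windows are copied elsewhere. Each line is 1 value from a pooled list.

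The baits of the other low members showed less. Mrps33 had 1 contact in WT ESCs, with 4 in EpiSCs and 0 in Nanog-/- ESCs, the EpiSC ones lying in or beside Tmem178b and Agk, a kinase of the mitochondrial membrane. Each rested on 5 to 8 reads. Mrps24 kept 1 contact in all lists, with the Gm11963 fragment at 222 kb (6, 8 and 4 reads). Mrpl39 met the fragment of Jam2 at 42.8 kb in EpiSCs (10 reads) and Nanog-/- ESCs (11 reads). That fragment is the only one of the 899 fragments in the study's ESC super-enhancer list that any member contacted, and no member did so in WT ESCs, where 0.569% of all pairs touched one. In WT ESCs and EpiSCs the Mrpl39 bait also contacted the fragment of Gabpa at 104 kb, with 6 and 4 reads.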

How the data were processed

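RNA-seq and PCHi-C of mouse WT ESCs, EpiSCs and Nanog-/- ESCs were used; EpiSC ChIP-seq was not used here. The authors trimmed reads, aligned RNA reads with TopHat and Bowtie 1.1.0 per the labels, and deposited RPKM as 1 median per state; the counting program and its strand setting are not given in the sources used here. The authors' log2 fold changes and significance calls in that table were not used. The deposited contact lists hold, per pair of HindIII fragments, the read count and the CHiCAGO score that the authors computed on pooled replicates. The table's column headed BT12 was taken as Nanog-/- ESC because no other group remained for it.

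Genes, scale and filter are given with the results; log2 ratios used a pseudocount of 0.1 RPKM and a fold of 1.5. The bait number of the table was read as the rank of a HindIII fragment of GRCm38, which carried the same gene name in 14992 of 15008 cases. No unassigned column was present. The members, the lists and the questions were chosen with earlier results of these data known, and the search for copied windows was added after the EpiSC ratios had been seen. Named genes are the 6 highest and 4 lowest in level and the 6 highest and 6 lowest ratios per comparison. Also named are the 6 baits with most contacts, baits whose contact number differed most, members with contacts over 800 kb or on super-enhancers, and the extremes of each pathway list. The Igf2, Mir7-2 and Gabpa contacts, Mrpl44, and the overlap partners were singled out after their values were seen. The Gabpa and Nrf1 levels are given outside these rules. The calculations used Python 3.11, numpy, pandas and scipy and were tested on simulated data.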

Additional observations from a re-analysis of the deposited data

How the results depend on the processing

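No paired analysis was possible because the deposited columns are group medians and pooled lists that carry no replicate, and for the same reason no replicate could be left out in turn. Of 155 summary values recomputed under an alternative, 110 stayed within their limits (a factor of 1.5 for counts, the 95% interval of the main value otherwise). Part of these 110 could not move. Dropping the filter or raising it to 10 RPKM removed no member, so the members' own medians and counts were fixed. A fold limit cannot alter a median, and the rank correlations were recomputed over the same members. Leaving out contacts between chromosomes removed none in WT ESCs or EpiSCs. The tally is therefore no measure of robustness. The members' EpiSC median of -0.47 became 0.44 without scaling, with 17 higher and 3 lower by 1.5-fold, against 64.7% and 11.3% of all genes. It was -0.33 when scaled on genes at 10 RPKM or more, with 12 lower against 21.2% of all genes. With equal sums of RPKM it was -0.021, with 2 higher and 7 lower against 44.6% and 15.6%. Without scaling and with equal sums, the members' share lower was thus below that of all genes. A scale moves all genes alike, so the distance between both medians could hardly change with it. From the median of genes at a mean of 10 RPKM or more the distance was -0.36. A fold of 2 left 7 lower in EpiSCs, against 16.1% of all genes. A fold of 5 to 4 gave 1 higher and 36 lower, against 36.5% and 35.9%. In Nanog-/- ESCs, scaling gave 0 higher and 2 lower, a fold of 2 gave 0 and 0, a fold of 5 to 4 gave 9 and 4, members with few copied windows 0 higher, and members that share no exon 0 and 0. Both selections, and those without Mrpl23 and Mrps33 or without Mrpl37, were chosen after seeing the data. Contacts in WT ESCs, EpiSCs and Nanog-/- ESCs fell to 150, 155 and 119 at a score of at least 7 and to 190, 181 and 131 with at least 10 reads, where the median per bait was 1 in EpiSCs and in Nanog-/- ESCs under both. At a score of at least 7 the contacts on super-enhancer fragments in EpiSCs were 0. Over 500 kb the shares were 12.1%, 14.2% and 7.23%, and over 1000 kb they were 0.318% in WT ESCs and 0% in Nanog-/- ESCs. WT ESC contacts found again within 10 kb were 65.6% in EpiSCs and 64.3% in Nanog-/- ESCs, and 62.7% and 58.0% for those with a score of at least 7. In promoters, the gene strand alone gave 20.0% for CCAAT, 15.6% for ETS and 24.4% for SP. Of genes at 10 RPKM or more it gave 25.3%, 12.8% and 52.2%. The bases before the start alone gave 17.8% for ETS and 6.67% for YY1, against 17.2% and 2.34% of those genes. Low read numbers, often under 10 per contact, limit single contacts, and the cause of these changes beyond the altered limits was not tested.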
